A study of Mus musculus with 16 samples.

Results

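The cartilage and fibrocartilage genes examined here are 10 genes of cartilage matrix and its control, Acan, Hapln1, Sox9, Comp, Matn3, Matn4, Chad, Cilp2, Ucma and Cytl1, among 49568 gene symbols counted in mouse flexor tendon. They were taken by symbol across 4 groups of tendons, and each has 1 row of counts. The members were chosen by gene symbol, and Acan, Ucma and Cytl1 were also selected on their measured differences between strains or after injury in these counts, so their levels and fold changes are a description with no test. Of the other 7 genes, 6 had enough counts to be tested and Matn3 did not. An expression filter kept 9 of the 10 genes in every comparison.

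RNA-seq was performed on the deep digital flexor tendon of digit 3 in the hind paw of male mice aged 9 to 11 weeks, with 4 libraries in each of 4 groups. Tendons came from C57BL/6J (C57) or MRL/MpJ (MRL) mice and were either left uninjured or taken 7 days post-injury (7 dpi), where the injury was a partial laceration of 50% of the tendon. C57 is a common inbred strain and MRL is an inbred strain known for healing several tissues with little scarring. Each library came from 1 tendon, with the sheath and peritendinous tissue left on, and no surgery without laceration was analysed here, so surgery and laceration cannot be told apart. P-values measure the spread between these tendons. Levels are CPM, the counts scaled to a common library size after adjustment by TMM, a scaling that assumes most genes do not differ.

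Aggrecan, the main proteoglycan of cartilage, binds hyaluronan chains together with link protein, and the resulting gel is held in a network of type II collagen. Smaller proteins such as COMP, the matrilins and chondroadherin tie collagens to each other and to other matrix. Sox9, with Sox5 and Sox6, switches on many of these genes in chondrocytes. Tendon is mostly type I collagen, but it turns fibrocartilaginous where it is compressed against bone or a pulley, and COMP and chondroadherin are also made by ordinary tendon cells.

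Total counts ranged from 12552424 to 23741648, and the 10 genes together took 0.755% to 3.34% of a library. Of the 16 libraries 3 stood apart. Uninjured C57 replicate 4 gave 9.04% of its counts to 12 epidermal genes, against at most 0.0979% elsewhere, and its Spearman correlation with its own group was 0.799 to 0.834. The injured C57 library BI-181 gave 7.51% of its counts to 12 skeletal muscle genes, BI-183 of the same group 0.239% and the others at most 0.00176%. Uninjured MRL replicate 4 correlated at most at 0.941 with its own group and at 0.964 with an uninjured C57 library. Tenocyte markers (Scx, Mkx, Tnmd, Fmod, Thbs4 and Kera) summed to 4992 to 19300 CPM in all libraries. The labels give no batch, but the injured libraries are named BI-181 to BI-185 in C57 and BI-270 to BI-275 in MRL and the uninjured libraries by strain, so any difference between these series cannot be told apart from strain or from injury.

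Levels of Acan and Hapln1 followed each other across the libraries, as did those of Chad and Cilp2. The 250 bases before the RefSeq start of each of these 4 genes are shown to set the pairs side by side. In the RefSeq promoter table (GRCm38.p6), 8 of the 10 genes had an entry, and Comp and Sox9 did not. Capitals mark the SOX core motif ACAAT or the TATA box TATAAA, searched on both strands in windows of 300 bases that reach 50 bases past the start. Sequences run 5′ to 3′ on the gene's strand, from chr7:79052976-79053225 (+) for Acan, chr13:89540386-89540635 (+) for Hapln1, chr11:94564797-94565046 (+) for Chad and chr8:69887393-69887642 (−) for Cilp2.
Acan: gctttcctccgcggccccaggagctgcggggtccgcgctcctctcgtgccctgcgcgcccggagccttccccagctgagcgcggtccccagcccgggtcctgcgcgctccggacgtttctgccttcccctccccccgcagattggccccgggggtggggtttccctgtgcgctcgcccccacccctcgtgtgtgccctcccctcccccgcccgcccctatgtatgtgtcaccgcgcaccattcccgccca
Hapln1: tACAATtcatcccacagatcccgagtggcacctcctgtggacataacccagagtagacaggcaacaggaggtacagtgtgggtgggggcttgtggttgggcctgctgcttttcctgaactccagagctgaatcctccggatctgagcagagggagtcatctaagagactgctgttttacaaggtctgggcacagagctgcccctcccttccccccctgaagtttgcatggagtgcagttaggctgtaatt
Chad: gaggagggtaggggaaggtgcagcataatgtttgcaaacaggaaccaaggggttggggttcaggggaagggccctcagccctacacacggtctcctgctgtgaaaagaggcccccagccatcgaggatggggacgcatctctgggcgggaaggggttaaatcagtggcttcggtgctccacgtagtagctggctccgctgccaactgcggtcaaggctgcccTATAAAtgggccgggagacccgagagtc
Cilp2: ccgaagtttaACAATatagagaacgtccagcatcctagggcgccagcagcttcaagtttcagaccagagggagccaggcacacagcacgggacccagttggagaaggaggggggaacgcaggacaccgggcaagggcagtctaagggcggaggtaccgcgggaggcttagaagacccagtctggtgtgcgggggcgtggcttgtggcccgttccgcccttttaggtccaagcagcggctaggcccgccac

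The SOX core letters stood 249 bases before the RefSeq start of Hapln1 and 240 bases before that of Cilp2, and in no window of the other 6 genes. Both of these windows lie inside the GENCODE span of their gene (chr13:89539796-89611652 and chr8:69880369-69887687). Their RefSeq starts are therefore internal to the longer gene model. These 2 of 8 genes compare with 31% of 32851 mouse promoter windows. Chad had a TATA box 28 bases before its start, a motif found in 13.6% of all windows. The upstream sequences of Acan and Hapln1 share neither motif, and the same holds for Chad and Cilp2.

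Per kilobase of exon, which allows levels to be compared between genes, the set spanned several orders of magnitude. Chad had the highest mean in uninjured C57 tendon, at 9867 ± 4709 CPM per kilobase (SD, n = 4), in uninjured MRL tendon, at 9383 ± 3085, and in injured C57 tendon, at 3530 ± 1556. In injured MRL tendon Comp came first, at 3855 ± 1382 CPM per kilobase, and Chad second, at 2623 ± 1270, a difference within their spread. Acan had only 1.60 ± 0.536 CPM per kilobase in uninjured C57 tendon and 24.5 ± 18.9 in injured MRL tendon. Matn3 was last in every group, at no more than 0.245 ± 0.105.

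**Figure D1:**
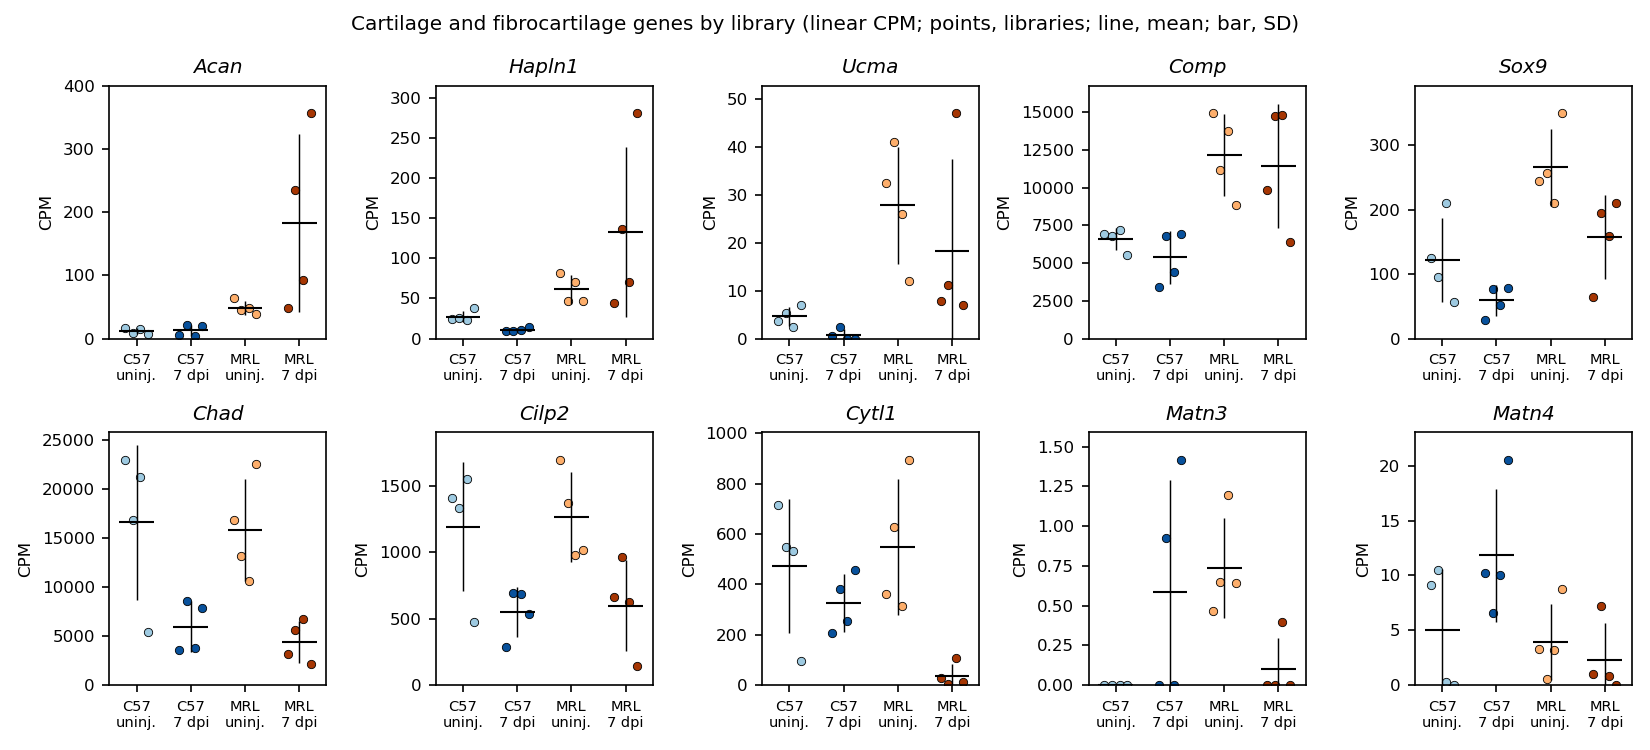
Level of each of the 10 genes in CPM (vertical axis, linear, starting at 0 and scaled per gene) in the 4 groups (horizontal axis). Points are libraries in order of replicate, lines are group means and bars are SD, not drawn below 0. All MRL points of Acan lie above all C57 points, Chad and Cilp2 lie lower at 7 dpi in MRL, and Cytl1 is lowest in injured MRL tendon.

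In the genes of aggrecan and its link protein each MRL library stood above each C57 library, with or without injury. Acan (chr7:79053483-79115099, GRCm38, + strand) was counted at 15.9, 9.46, 14.7 and 7.66 CPM in uninjured C57 tendon, and at 6.06, 21.6, 4.34 and 20.01 CPM in injured C57 tendon. Uninjured MRL tendon held 64.8, 45.1, 47.9 and 38.2 CPM, and injured MRL tendon 48.1, 235, 92.4 and 358 CPM. The lowest of the 8 MRL libraries held 38.2 CPM and the highest of the 8 C57 libraries 21.6 CPM. The fitted strain difference (MRL against C57) was a log2 fold change of 2.01 (SE 0.29), or 4.03-fold, without injury and 3.78 (SE 0.75), or 13.7-fold, at 7 dpi. Between injured and uninjured tendon the log2 fold change was 0.07 (SE 0.54) in C57 and 1.91 (SE 0.52) in MRL, where the groups overlapped and the injured libraries spread around a mean of 183 CPM with an SD of 141. Leaving out BI-275, the highest library, brought the MRL value to 1.35.

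Hapln1 (chr13:89539796-89611652, + strand) encodes the link protein that locks aggrecan onto hyaluronan. Its levels were 23.9, 25.2, 22.5 and 37.7 CPM in uninjured C57 tendon and 9.002, 9.06, 10.96 and 14.5 CPM in injured C57 tendon, with no overlap. MRL tendon had 82.0, 46.9, 70.4 and 46.1 CPM without injury and 44.3, 137, 69.9 and 281 CPM at 7 dpi, with overlap. The lowest MRL and the highest C57 library were at 44.3 and 37.7 CPM. Between the injured strains Hapln1 was 11.9-fold higher in MRL (log2 fold change 3.57, SE 0.53, edgeR adjusted p = 0.00666), and it was the only one of the 6 tested genes called there, where 3.43% of the 14626 genes tested were called. Without BI-275 the log2 fold change was 2.97 and was still called (edgeR adjusted p = 0.00649). A call needed an adjusted p under 0.05 and a log2 fold change beyond 1 in either direction. DESeq2 called 3 of the 6, with Sox9 and Comp beside Hapln1, and 8.48% of the 17551 genes it tested.

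The Hapln1 differences in the other comparisons did not pass the edgeR test. In C57 the mean was 27.3 ± 6.98 CPM without injury and 10.9 ± 2.57 CPM at 7 dpi (SD, n = 4; log2 fold change -1.38, SE 0.28, edgeR adjusted p = 0.0556), and it passed with DESeq2 (adjusted p = 0.000763) and, in edgeR, without uninjured C57 replicate 4 (adjusted p = 0.0252). In MRL the log2 fold change after injury was 1.13 (SE 0.49, edgeR adjusted p = 0.165), and 0.45 without BI-275. The strain difference in the injury effect was 2.45 on the log2 scale (SE 0.61, unadjusted p = 0.000954), with an edgeR adjusted p of 0.333 and a DESeq2 adjusted p of 0.0176, and it was 1.78 without BI-275. In uninjured tendon MRL exceeded C57 by 1.13 (SE 0.27, edgeR adjusted p = 0.621). No fit that left out 1 library called this difference (edgeR adjusted p = 0.154 to 0.950). Without both uninjured libraries numbered 4, a setting chosen after seeing the data, it was 1.47 (edgeR adjusted p = 0.00338). That fit called 3.48% of all genes, against 0% with all libraries.

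Sox9 (chr11:112782224-112787760, + strand), the transcription factor that directs chondrocyte formation, had 125, 95.6, 211 and 57.5 CPM in uninjured C57 tendon and 28.7, 77.1, 52.6 and 79.0 CPM in injured C57 tendon. In MRL tendon it had 245, 258, 210 and 350 CPM without injury and 64.8, 196, 160 and 211 CPM at 7 dpi. Means ran in the same order within each strain, lower at 7 dpi, and neighbouring groups overlapped throughout. None of its differences passed the edgeR test. The nearest was injured MRL against injured C57 tendon, at a log2 fold change of 1.38 (SE 0.39, edgeR adjusted p = 0.0840), which passed with DESeq2 (adjusted p = 0.0122) and, in edgeR, without BI-270, the lowest MRL library at 7 dpi (1.71, adjusted p = 0.0290). Over the fits that left out 1 library the value went down to 1.16, without BI-181, and the adjusted p up to 0.166. The log2 fold change after injury was -1.09 (SE 0.42, edgeR adjusted p = 0.268) in C57 and -0.75 (SE 0.32, adjusted p = 0.156) in MRL.

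Comp (chr8:70373558-70382066, + strand) encodes cartilage oligomeric matrix protein, a pentamer that bridges collagens in cartilage and tendon. Uninjured C57 tendon had 6915, 6798, 7165 and 5514 CPM, and injured C57 tendon 3420, 6787, 4401 and 6951 CPM. Uninjured MRL tendon had 14933, 11138, 13732 and 8825 CPM, and injured MRL tendon 9830, 14742, 14799 and 6376 CPM. Without injury every MRL library exceeded every C57 library, and at 7 dpi only BI-275 fell among the C57 values. The strain difference was 0.85 on the log2 scale (SE 0.22, edgeR adjusted p = 0.621) without injury and 1.06 (SE 0.34, edgeR adjusted p = 0.115) at 7 dpi. DESeq2 gave adjusted p = 0.0122 and 0.0212 for these, and only the second exceeded the fold limit. With injury the log2 fold change of Comp was -0.34 (SE 0.27) in C57 and -0.08 (SE 0.29) in MRL, neither past the test.

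Both matrilins, which are adaptor proteins of cartilage matrix, were low. Matn3 (chr12:8947929-8972028, + strand) had counts of 0 in every uninjured C57 library, then 0, 15, 0 and 20 in injured C57 tendon, 7, 9, 20 and 8 in uninjured MRL tendon and 0, 0, 9 and 0 in injured MRL tendon. Against a floor of 3 counts per library, uninjured MRL tendon was at least 3.60-fold higher than uninjured C57 tendon. Matn4 (chr2:164389393-164405160, − strand) had 9.13, 10.5, 0.31 and 0 CPM in uninjured C57 tendon, 10.2, 6.53, 10.1 and 20.6 CPM at 7 dpi, 3.25, 0.50, 3.16 and 8.76 CPM in uninjured MRL tendon and 1.05, 7.26, 0.79 and 0 CPM in injured MRL tendon. No comparison was called, and the groups overlapped in each. The largest fold change was between the injured strains (log2 fold change -2.41, SE 1.08, unadjusted p = 0.0497, edgeR adjusted p = 0.235), and it ran from -4.22 without BI-272 to -1.94 without BI-275. It shares 149 bases of exon with Rbpjl on the opposite strand, so part of its counts is uncertain.

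**Figure D2:**
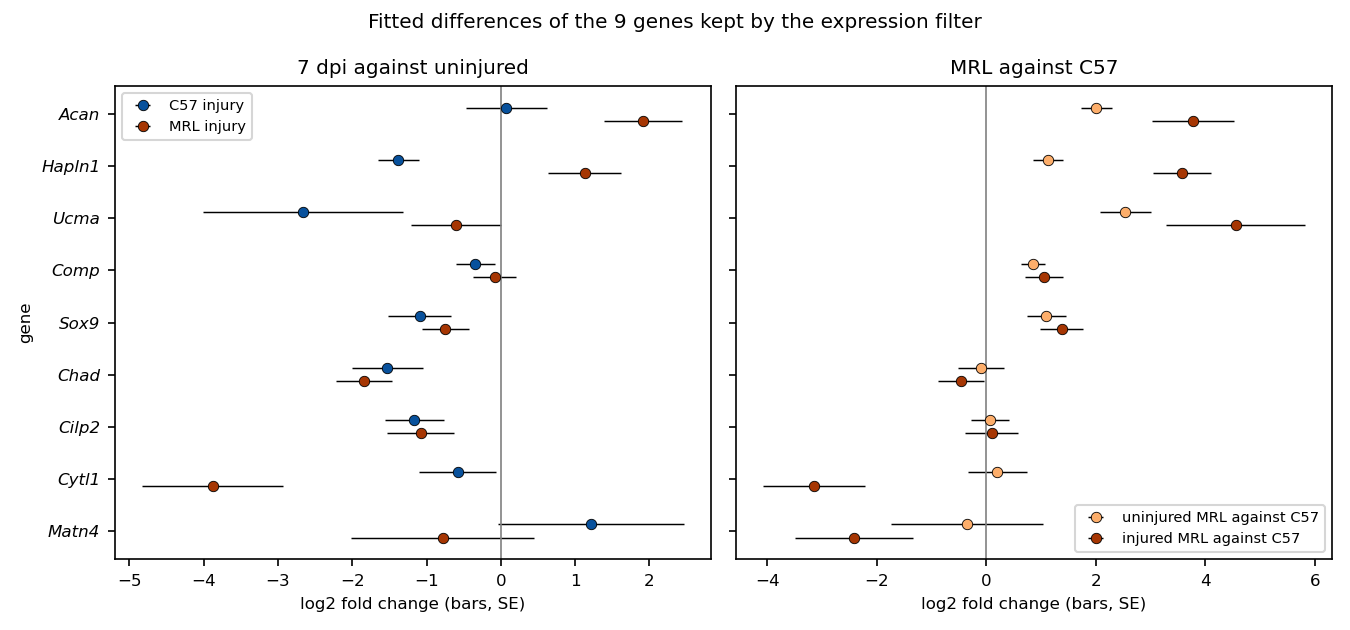
Fitted log2 fold changes (horizontal axis, with SE) of the 9 genes kept by the expression filter (vertical axis), for injured against uninjured tendon in each strain at left and for MRL against C57 tendon without and with injury at right. The Hapln1 and Acan points of MRL injury lie right of 0, the Chad and Cilp2 points of both strains lie left of it, and Hapln1, Acan and Ucma lie furthest right between the injured strains.

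Chad and Cilp2 had lower mean levels at 7 dpi in both strains, and no strain difference passed the test. Chad (chr11:94565047-94569127, + strand) encodes chondroadherin, a leucine-rich repeat protein that binds cells and collagen. It had 22964, 16758, 21207 and 5375 CPM in uninjured C57 tendon and 3549, 8524, 3816 and 7836 CPM in injured C57 tendon. In MRL tendon it had 16776, 13155, 10585 and 22540 CPM without injury and 3176, 5603, 6737 and 2111 CPM at 7 dpi. The MRL groups did not overlap, whereas uninjured C57 replicate 4 lay among the injured C57 values.

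Chad fell 3.57-fold with injury in MRL tendon (log2 fold change -1.84, SE 0.38, edgeR adjusted p = 0.0139). It was the only one of the 6 tested genes called there, where 7.41% of 14274 genes were called, and it was called in each fit that left out 1 library. In C57 tendon the log2 fold change was -1.53 (SE 0.48, edgeR adjusted p = 0.187), and without uninjured C57 replicate 4 it was -1.82 (adjusted p = 0.0163). Leaving out any other single library gave -1.71 to -1.32 and an edgeR adjusted p of up to 0.367. DESeq2 called it in both strains. The interaction of strain and injury was -0.36 on the log2 scale (SE 0.63, edgeR adjusted p = 0.876), so a difference between the strains in the injury effect was not detected. Between strains the log2 fold change was -0.09 (SE 0.42) without injury and -0.46 (SE 0.42) at 7 dpi.

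Cilp2 (chr8:69880369-69887687, − strand), a relative of the cartilage intermediate layer protein gene Cilp, had 1408, 1332, 1552 and 476 CPM in uninjured C57 tendon and 285, 689, 687 and 531 CPM at 7 dpi. In MRL tendon it had 1695, 1367, 977 and 1012 CPM without injury and 659, 962, 628 and 139 CPM at 7 dpi. The MRL groups did not overlap, and in C57 only the uninjured replicate 4 lay among the injured libraries. The log2 fold change was -1.17 (SE 0.40, edgeR adjusted p = 0.217) in C57 and -1.08 (SE 0.45, edgeR adjusted p = 0.146) in MRL. Without uninjured C57 replicate 4 the C57 value was -1.43 (adjusted p = 0.0184), and without BI-181 it was -0.93, with an edgeR adjusted p of up to 0.394 when 1 library was left out.

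Between the injured strains Ucma and Cytl1, which encode secreted proteins known from cartilage, had fold changes of opposite sign. Ucma (chr2:4976122-4985748, + strand) encodes a small protein rich in gamma-carboxyglutamate. It had 3.63, 5.44, 2.47 and 7.02 CPM in uninjured C57 tendon and 0.54, 2.46, 0 and 0 CPM at 7 dpi, against 32.5, 41.1, 26.0 and 12.0 CPM in uninjured MRL tendon and 7.94, 11.1, 47.2 and 6.96 CPM at 7 dpi. MRL exceeded C57 by a log2 fold change of 2.54 (SE 0.47) without injury, with no overlap, and by 4.55 (SE 1.27) at 7 dpi, with no overlap. The second value went from 3.52 without BI-274 to 6.50 without BI-183, with 0 to 40 counts in the injured C57 libraries.

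Cytl1 (chr5:37735519-37739820, + strand) encodes a small cytokine-like protein. Its levels were 714, 549, 534 and 94.7 CPM in uninjured C57 tendon, 206, 381, 256 and 459 CPM in injured C57 tendon and 362, 626, 312 and 896 CPM in uninjured MRL tendon, and these 3 groups overlapped. In injured MRL tendon it had 26.4, 4.04, 108 and 10.6 CPM, all below the uninjured MRL and injured C57 libraries. The log2 fold change with injury was -3.88 (SE 0.95) in MRL, 14.7-fold lower, and -0.58 (SE 0.52) in C57. When 1 library was left out the MRL value ran from -5.31, without BI-274, the highest injured MRL library, to -3.50, without BI-272, the lowest.

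Across the set, injury in C57 tendon gave no call by edgeR among the 6 tested genes, beside 1.07% of 14424 genes, although 4 of the 6 had an unadjusted p under 0.05, as had 15.3% of all genes. DESeq2 called 2, Chad and Hapln1, beside 5.46% of all genes, and edgeR without uninjured C57 replicate 4 called 3, Chad, Cilp2 and Hapln1. In that last fit 5.01% of all genes were called. In uninjured tendon edgeR called none of the 6 and 0% of 14055 genes between strains, with 3 of the 6 and 7.87% of all genes at an unadjusted p under 0.05, and DESeq2 called 1, Hapln1, beside 0.629% of all genes. Of the 6 tested genes 2, Comp and Hapln1, were higher in every MRL than in every C57 library there, beside 3.14% of genes tested. In injured tendon 1 of the 6, Hapln1, was higher in every MRL library (8.27% of genes tested) and none was lower in every one (7.58%). With injury 2 of the 6, Chad and Cilp2, were lower without overlap in MRL (9.44%), and 1, Hapln1, in C57 (4.17%). The untested Matn3 also did not overlap between the uninjured strains or with injury in MRL, on the few counts given above. Acan, Ucma and Cytl1, chosen for such differences, are left out of these counts.

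The interaction was called by edgeR for none of the 6 genes and for 0% of 15947 genes. One of the 6, Hapln1, had an unadjusted p under 0.05, beside 12.2% of all genes, and DESeq2 called it alone among the 6, beside 1.23% of all genes. Over the 6 tested genes, without those chosen for their differences, the median log2 fold change was 0.46 between uninjured strains and 0.58 between injured strains, against -0.03 and -0.06 over all genes tested. With injury it was -1.13 in C57 and -0.77 in MRL, against -0.05 and -0.03.

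The other genes of cartilage matrix and its control were examined in 5 lists with 59 genes in all. Over the lists edgeR called 6 of 48 genes tested with injury in MRL and 5 of 46 between the injured strains, where 7.41% and 3.43% of all genes were called. It called 0 of 47 with injury in C57 and 0 of 45 between the uninjured strains, where 1.07% and 0% of all genes were called. At an unadjusted p under 0.05 there were 16 and 14 of them, beside 15.3% and 7.87% of all genes, and DESeq2 called 4 and 2, beside 5.46% and 0.629%. Among the genes called between the injured strains, Epyc, Hapln3 and Sox10 had few counts in 1 strain. The filter kept them through the other strain, where they were higher. Without BI-185, and likewise without BI-272, none of the list genes was called between the injured strains, beside 1.52% and 1.69% of all genes. With injury in MRL 3 to 7 were called when 1 library was left out, in fits that called 4.64% to 8.58% of all genes. The list genes are named by their calls and sizes of change.

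Of a first list of 18 other cartilage matrix genes 12 or 13 could be tested in a comparison. With injury in MRL tendon 2 rose, and in C57 tendon none passed the edgeR test. Col11a1, a chain of type XI collagen, rose 2.99-fold in MRL (log2 fold change 1.58, SE 0.35, edgeR adjusted p = 0.0189), from 137, 154, 96.2 and 74.0 CPM to 204, 560, 214 and 397 CPM. Col27a1, another fibrillar collagen of cartilage, rose 2.47-fold (log2 fold change 1.30, edgeR adjusted p = 0.0360). Between the injured strains Col11a1 was 4.77-fold higher in MRL (edgeR adjusted p = 0.0256), and Epyc, a small proteoglycan of growth plate, was lower (log2 fold change -4.94, edgeR adjusted p = 0.0480) at no more than 17.2 CPM in any library.

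Col2a1, which encodes type II collagen, the main collagen of cartilage, did not pass the edgeR test in any comparison. It had 17.9, 39.8, 19.6 and 38.7 CPM in uninjured C57 tendon, 2.94, 16.9, 2.79 and 9.51 CPM in injured C57 tendon, 142, 130, 85.9 and 13.5 CPM in uninjured MRL tendon and 11.8, 57.5, 123 and 355 CPM in injured MRL tendon. Its largest difference was between the injured strains (log2 fold change 4.05, SE 1.07, edgeR adjusted p = 0.0771). Col11a2 had 29.8, 23.6, 27.4 and 1.45 CPM in uninjured MRL tendon against 1.34 to 4.21 CPM in uninjured C57 tendon, with an edgeR adjusted p of 0.621. In both genes uninjured MRL replicate 4 was the library that fell to the C57 range. Col9a1 did not exceed 20.5 CPM in any library, and no difference passed the edgeR test.

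Among 12 regulators of chondrocytes, Fgfr3, a growth factor receptor that restrains cartilage growth, fell 4.46-fold with injury in MRL tendon (log2 fold change -2.16, SE 0.59, edgeR adjusted p = 0.0422), although the groups overlapped. The C57 value was similar in size and did not pass (-2.06, SE 0.74, edgeR adjusted p = 0.243), and no other gene of the list was called by edgeR in any comparison of all libraries. Sox5 was at 87.0, 96.6, 132 and 101 CPM in uninjured MRL tendon and 61.3, 70.6, 79.5 and 69.9 CPM at 7 dpi, without overlap (log2 fold change -0.56, SE 0.16, edgeR adjusted p = 0.0534). Sox6 gave -0.44 (SE 0.23) with the same injury. Between uninjured strains all 10 regulators tested had fold changes above 0 in MRL, and so did 11 of 12 matrix genes, though none passed the edgeR test. The medians were 0.73 and 1.26 on the log2 scale, against -0.03 over all genes tested. The expression filter shaped these counts. Nkx3-2 and Sox8 were kept largely through MRL, at means of 2.13 and 1.27 CPM against 0.330 and 0.402 CPM in C57. Runx3, lower in MRL (0.176 against 0.665 CPM), and Ihh, higher in MRL (0.265 against 0 CPM), were not tested.

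Chondroitin sulfate, the sugar chain carried by aggrecan, is made by enzymes of a further list of 12 genes, all tested. Csgalnact1, which starts the chain, rose 4.93-fold with injury in MRL (log2 fold change 2.30, SE 0.42, edgeR adjusted p = 0.00819), from 13.5, 6.99, 13.7 and 6.83 CPM to 21.1, 60.1, 39.1 and 81.4 CPM. In C57 it went from 11.8, 8.16, 4.24 and 3.38 CPM to 23.5, 79.9, 85.3 and 22.1 CPM (log2 fold change 2.88, SE 0.59, edgeR adjusted p = 0.0578), and the groups did not overlap in either strain. Chsy1, a chain polymerase, rose 2.68-fold in MRL (edgeR adjusted p = 0.0372). Chsy3, of the same enzyme family, was 3.87-fold higher in injured MRL than injured C57 tendon (edgeR adjusted p = 0.0174). The other genes of the list were not called by edgeR in any comparison of all libraries.

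None of 5 proteases that cleave aggrecan was called by edgeR. Injury gave log2 fold changes of -0.21 to 3.05 for them in C57 tendon and of -1.37 to 0.67 in MRL tendon. Among 16 relatives of the 10 genes, Thbs4, a thrombospondin of the family of Comp, rose 2.47-fold with injury in MRL (edgeR adjusted p = 0.00679), from 1872 to 2762 CPM before to 4269 to 7454 CPM after. In C57 its log2 fold change was 0.96 (SE 0.34, edgeR adjusted p = 0.228), and the groups did not overlap in either strain. Its interaction of strain and injury was 0.29 (SE 0.41, edgeR adjusted p = 0.836). Hapln3, a relative of Hapln1 whose gene lies next to Acan on the opposite strand, was higher in injured MRL tendon, at 12.7 to 19.3 CPM, than in injured C57 tendon, at 0 to 1.49 CPM (log2 fold change 4.49, edgeR adjusted p = 0.0313). It was kept by the filter through its injured MRL counts. Sox10, of the family of Sox9, was lower in injured MRL tendon, at no more than 0.264 CPM against up to 10.98 CPM in C57 (edgeR adjusted p = 0.0349). It rests on few counts and was kept by the filter through injured C57 tendon. Sox10 is also expressed by Schwann cells, whose 5 markers summed to 899.8 to 1987 CPM in injured C57 and 522 to 948 CPM in injured MRL tendon, and their part in this difference was not tested.

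**Figure D3:**
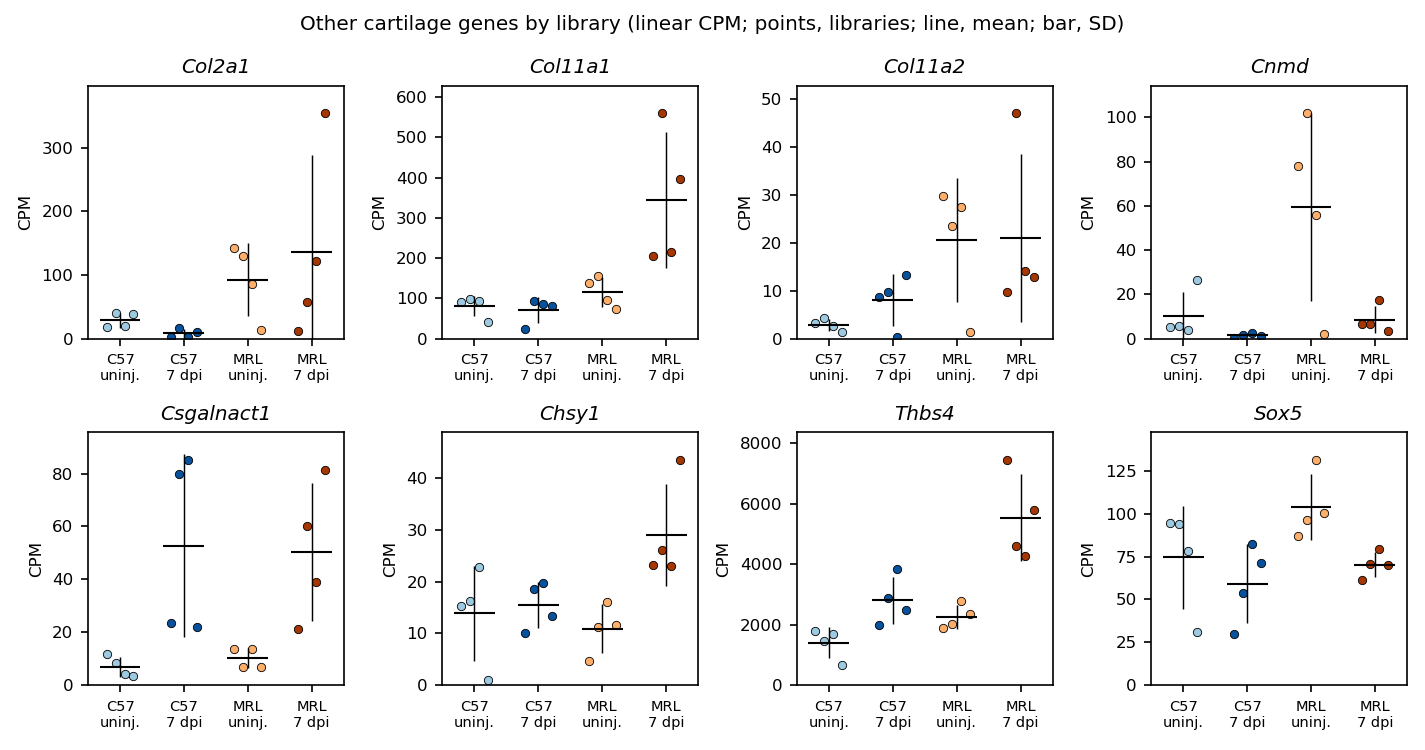
Level in CPM (vertical axis, linear, from 0, scaled per gene) of 8 further cartilage genes in the 4 groups (horizontal axis), with points for libraries, lines for means and bars for SD, not drawn below 0. Col11a1 is higher at 7 dpi than before in MRL, Thbs4 and Csgalnact1 are higher at 7 dpi in both strains, and 1 uninjured MRL library lies near the C57 level in Col2a1, Col11a2 and Cnmd.

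Markers of chondrocytes were taken as a list of 7, Col2a1, Col9a1, Col11a2, Matn1, Cnmd, Snorc and Acan, the last of which is also one of the genes chosen for their differences. They summed to 42.0 to 91.0 CPM in uninjured C57 tendon, 10.05 to 50.9 in injured C57 tendon, 63.2 to 345 in uninjured MRL tendon and 80.8 to 750 in injured MRL tendon. Without Acan the ranges were 27.3 to 83.3, 5.71 to 32.5, 24.9 to 284 and 32.7 to 392 CPM in the same order, and the uninjured strains overlapped with and without it. Matn1, the matrilin most restricted to cartilage, was at 0 in every library of 3 groups and reached 0.418 CPM in 1 uninjured MRL library. Cnmd, the cartilage chondromodulin gene, was at 77.8, 102, 55.8 and 2.17 CPM in uninjured MRL tendon, 6.34, 6.62, 17.4 and 3.56 CPM in injured MRL tendon and at most 26.5 CPM in C57 tendon. In bulk tissue a change in the number of cells of a type and a change in RNA per cell cannot be told apart.

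Osteoblast markers, a list of 6, summed to 31.7 to 61.2 CPM in uninjured C57 tendon and 80.8 to 233 CPM in uninjured MRL tendon, with Sp7 at 0 in every uninjured C57 and every injured MRL library. At 7 dpi they summed to 9.85 to 50.0 CPM in C57 and 21.6 to 92.7 CPM in MRL. The 8 macrophage markers summed to 743 to 1643 and 953 to 1560 CPM in uninjured C57 and MRL tendon and to 4563 to 8252 and 3504 to 6376 CPM at 7 dpi. Tenocyte markers summed to 13051 to 19300 CPM in injured MRL tendon and 6771 to 10198 CPM in injured C57 tendon. Endothelial markers, a list of 5, summed to 16.5 to 66.5 and 0 to 53.8 CPM in uninjured C57 and MRL tendon. At 7 dpi they summed to 86.3 to 136 CPM in C57 and 0.0840 to 24.2 CPM in MRL. The 5 markers of dividing cells summed to 5.51 to 151 and 2.65 to 7.07 CPM in uninjured C57 and MRL tendon. At 7 dpi they summed to 40.7 to 249 CPM in C57 and 137 to 502 CPM in MRL. Uninjured MRL replicate 4 had a chondrocyte marker sum of 63.2 CPM with Acan and 24.9 CPM without it. Its levels of Acan, Ucma, Comp and Hapln1 lay above those of each uninjured C57 library. Without it the uninjured strain difference was 2.13 for Acan, 2.82 for Ucma and 1.27 for Hapln1 on the log2 scale. The part of these cell types in the differences of the 10 genes was not tested.

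Covariation over the 16 libraries is given as a description, since libraries of 1 group share their strain and injury. Acan and Hapln1 had a Pearson r of 0.88 in log2 CPM, and 0.64 after the group means were removed. Chad and Cilp2 had 0.84, and 0.72 within groups. Within groups other pairs were closer, with 0.75 for Comp and Cilp2 and 0.73 for Acan and Sox9. The injured MRL library BI-275 was the highest of its group in Acan, Hapln1 and Col2a1 and the lowest in Chad, Cilp2 and Comp. Acan and Chad had an r of -0.17 over all libraries and 0.32 within groups.

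**Figure D4:**
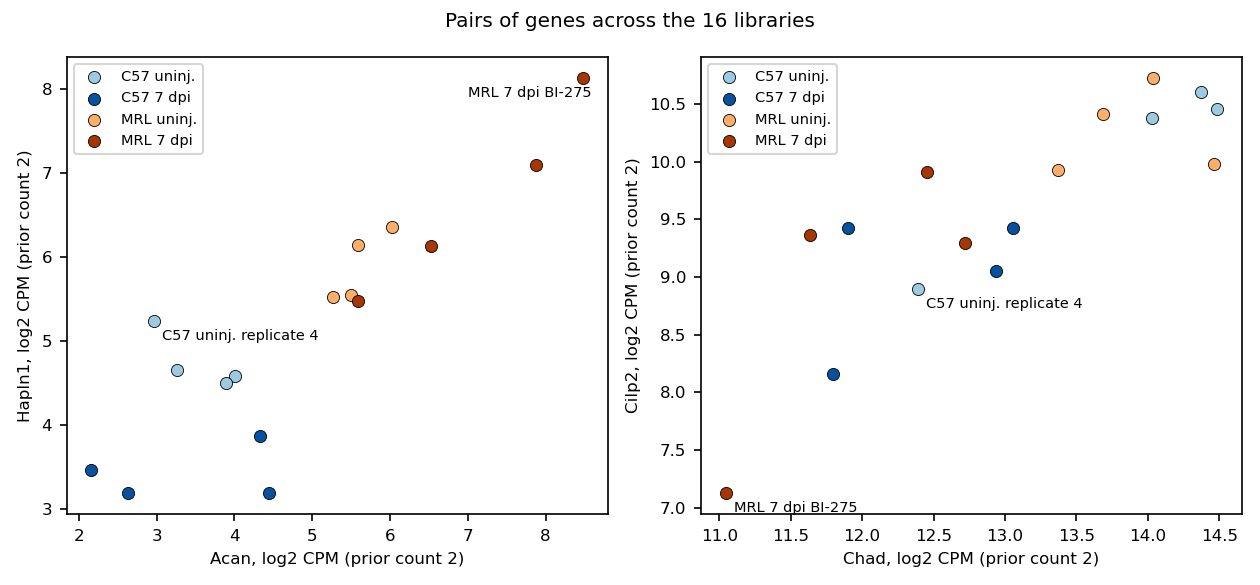
Log2 CPM of Acan against Hapln1 at left and of Chad against Cilp2 at right (prior count of 2), with 1 point for each of the 16 libraries, colored by group. BI-275 lies at the upper end of the first pair and the lower end of the second, and the MRL points form the upper part of the Acan and Hapln1 plot.

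Among 15938 genes outside the set, the genes whose log2 CPM most resembled a member over the 16 libraries were found by Pearson r. The first of the 3 nearest to Chad was Acsf2, at an r of 0.97, a gene counted at 1.00 to 23.9 CPM whose span covers all of Chad on the opposite strand. The library kits named do not mark strand, and the exons of the 2 genes do not overlap. Jund and Aldh3a1 followed, both at 0.96. Comp was nearest to Ehd2, at 0.92, then to Frzb, which encodes a secreted Wnt antagonist, and P3h4, both at 0.91. Cilp2 was nearest to CAAA01147332.1 and Aff3, both at 0.95, and Dkk3, at 0.94. Sox9 was nearest to Dhx58os and Tm2d3, both at 0.91, and Bmp2, at 0.89. For Acan the 3 were Tmco1, Tspan31 and Znhit1, at 0.94, 0.93 and 0.92, and for Hapln1 Ebna1bp2, Ifi27 and Rpp40, at 0.92, 0.91 and 0.90. Ucma had Masp1, Rps10-ps4 and Selenbp2, at 0.94, 0.92 and 0.90, and Cytl1 had Ggnbp2, Ltbp4 and Zmym5, at 0.93, 0.93 and 0.91. Matn4 had Bbs7, Fblim1 and Sox13, at 0.86, 0.85 and 0.85.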

How the data were processed

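Flexor tendon RNA was sequenced as single-end reads of 100 nt. The study's methods describe pre-amplification of 1 ng of RNA and the labels 100 ng without it, and intervals from counting would miss such amplification error. Reads were trimmed with Trimmomatic 0.36 and mapped with STAR 2.5.2b to GRCm38.p5, and the submitters' processing notes also name Subread 1.5.0p3 (featureCounts) and DESeq2 1.14.1. The authors deposited whole-number counts per gene symbol, without normalization, and the strand setting is not given in the sources used here.

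Counts of the 16 libraries were tested with edgeR 4.0.16 (R 4.3.3; TMM, expression filter, robust quasi-likelihood test, Benjamini-Hochberg over all genes), per strain, per injury state and as an interaction. CPM used TMM sizes, and log2 CPM a prior count of 2. The members and gene lists were chosen with earlier results of these data known. Genes named were all 10 members, the called list genes of largest change with Col2a1, Col9a1, Col11a2, Matn1, Sox5 and Sox6, the 3 genes most like each member and the leading markers. For 2 list genes the table used an older symbol. Gene positions and exon lengths came from GENCODE M21 (GRCm38). The tests were tried on simulated data first. The alternatives were DESeq2 1.42.0 (size factors or test), no filter, 1 fit of all 16 libraries, a replicate block and leaving out libraries.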

Additional observations from a re-analysis of the deposited data

Results flagged for a closer look

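In 3 of the 40 groups of 4 libraries (10 genes in 4 groups) the highest library was separated from the others by a gap past Dixon's critical value, and chance flags about 1 in 20 groups. All were in injured MRL tendon. Ucma was at 47.2 CPM in BI-274 and at 6.96 to 11.1 CPM in the other libraries. Matn3 was at 0.397 CPM in BI-274 and at 0 in the others, where any count above 0 meets this criterion. Matn4 was at 7.26 CPM in BI-272 and at 0 to 1.05 CPM in the others.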

How the results depend on the processing

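With DESeq2 the number of called members was 2 for C57 injury, 1 for the uninjured strains, 3 for the injured strains and 1 for the interaction, and the number of called list genes was 4 for C57 injury, 13 for MRL injury, 2 for the uninjured and 10 for the injured strains. DESeq2 also called more genes in all, 5.46% for C57 injury, 1818 of 16521 genes for MRL injury, 0.629% for the uninjured and 8.48% for the injured strains and 1.23% for the interaction. With 1 fit of all 16 libraries list calls were 1 for C57 injury (2.30% of all genes) and 2 for the injured strains (1.42%), and without a filter 2 for the injured strains (1.85%). Without both uninjured libraries numbered 4, a setting chosen after seeing the data, the uninjured strains gave 1 member call and 10 list calls, beside 3.48% of all genes, Cilp2 had a log2 fold change of -0.10 there, and Chad had an interaction of 0.15.

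Leaving out 1 library at a time gave 0 to 3 member calls for C57 injury (3 without uninjured C57 replicate 4), 1 to 2 for MRL injury (2 without BI-274, when Matn3 passed the filter and was called) and 1 to 2 for the injured strains (2 without BI-270), where 0.0667% to 5.01%, 4.64% to 8.58% and 1.52% to 3.19% of all genes were called. BI-274 was the only injured MRL library with Matn3 counts (9), against 7 to 20 counts in uninjured MRL tendon. The Matn3 call therefore followed from leaving it out and is no separate result. List calls ranged over 0 to 2 for C57 injury (2 without uninjured C57 replicate 4), 3 to 7 for MRL injury (3 without uninjured MRL replicate 1, 2 or 3, BI-272 or BI-275) and 0 to 5 for the injured strains, with 0 without BI-185 or BI-272, 1 without BI-183 or BI-275, 2 without BI-184 and 3 without BI-181 or BI-274. Some log2 fold changes changed sign in these fits. For the uninjured strains the ranges were -0.37 to 0.12 for Chad, -0.19 to 0.22 for Cilp2, -0.14 to 0.48 for Cytl1 and -1.11 to 0.31 for Matn4. For C57 injury the range was -0.24 to 0.40 for Acan. For MRL injury they were -0.23 to 0.12 for Comp and -2.64 to 0.0053 for Matn4, for the injured strains -0.18 to 0.48 for Cilp2, and for the interaction -0.29 to 0.37 for Cilp2 and -0.11 to 0.55 for Sox9. The cause of these shifts was not tested.

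Uninjured libraries of the same number in C57 and MRL did not deviate together (correlations of -0.24 to -0.03). A fit with this number as a block gave 0 member calls and 0 list calls, as without it, and 1 change of sign, in Matn4 (0.82). Differences between libraries at or under the floor of 3 counts, as in several libraries of Matn3, Matn4 and Ucma, were not detectable.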
